A study of Mus musculus with 8 samples.

Results

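The heat shock proteins and their DNAJ co-chaperones are described here in isolated mouse cardiomyocytes with and without deletion of Carm1, at 1 week (1w) and 3 weeks (3w). The members are all protein-coding genes of the count table whose symbol begins with Dnaj, Hspa, Hsph, Hspd, Hspe or Hsp90, or is Hspb followed by a digit. There were 72 of them among 21921 protein-coding genes and 54752 gene IDs. By class they comprised 14 HSP70 and HSP110 genes, 3 HSP90 genes, 2 chaperonin genes, 8 small heat shock protein genes, 4 DNAJA genes, 13 DNAJB genes and 28 DNAJC genes. Of the 72, 63 passed the filter on low counts and were tested. Dnajb3, Dnajb7 and Dnajc28 were listed at 0 counts in all 8 libraries, and Dnajb8, Dnajc22, Dnajc25, Dnajc5b, Dnajc5g and Hspb9 had between 1 and 14 counts over all 8 together. A listed 0 does not show that a gene was silent, since the heart muscle genes Actc1 and Pln were also listed at 0 in every library.

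Mice of all 4 groups carried floxed alleles of Carm1, written Carm1fl/fl in the labels. Carm1 is an arginine methyltransferase that acts on histones and other proteins. The knockout (KO) groups had received AAV9-Cre, an adeno-associated virus carrying the recombinase that removes the floxed stretch, and the control groups AAV9-GFP. The groups were KO and control at 1w and KO and control at 3w, with 2 libraries each. Infected and uninfected cells lay side by side in each mosaic heart, cardiomyocytes were obtained by Langendorff perfusion with no sorting step described, and libraries were made with SMART HT and Nextera XT kits. No group received Cre without floxed alleles, and the promoter that drives Cre is not given, so Cre itself and the loss of Carm1 cannot be told apart. The labels give injection on postnatal day 1 for library 1 and day 2 for library 2 at 1w, alike in KO and control. At 3w they give day 3 for library 1 and day 4 for library 2, again alike in KO and control. The 2 libraries of a group thus differ in injection day by the labels, which do not state outright that they are separate animals. The spread on which p-values rest is that between these libraries. It takes in any difference of injection day and, unless the libraries are separate animals, may be technical.

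Heat shock proteins are molecular chaperones that bind unfolded or newly made proteins. HSP70 proteins hold and release clients in an ATP-driven cycle, which DNAJ proteins (HSP40) start and HSP110 proteins reset, and HSP90 finishes the folding of kinases and receptors. Small heat shock proteins hold unfolding proteins without ATP and are abundant in heart muscle, where they sit on the contractile filaments, and heat shock factors switch on the inducible members by binding heat shock elements, repeats of the letters GAA and TTC in promoters.

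Total counts per library were 30683549 to 36136575 in 1w KO, 20818285 to 31702513 in 1w control, 30912152 to 31325805 in 3w KO and 37293627 to 53671626 in 3w control. Carm1 had 22.2 and 22.4 CPM (counts scaled to a common library size) in 1w KO and 17.3 and 17.8 in 3w KO, against 40.5 and 39.1 in 1w control and 39.9 and 39.3 in 3w control. Counts of Y-linked genes were 4282 to 5025 in 1w KO and 2 to 3 in 3w KO, against 0 to 1 in 1w control and 4814 to 6765 in 3w control, so that at each age alone this split and KO cannot be told apart. Within each genotype the same split runs with age, in opposite directions in KO and control, and cannot be told apart from age there.

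Other cell types moved with KO. The markers of fibroblasts had summed levels of 2346 to 2369 CPM in 1w KO against 1274 to 1275 in 1w control, and 651 to 662 CPM in 3w KO against 293 in both libraries of 3w control. At each age, 9 of the 9 tested were higher in KO. All 10 macrophage markers were higher in KO at each age, with 159 to 166 CPM in 1w KO against 49.3 to 50.2 in control, and 133 to 138 in 3w KO against 86.2 to 87.5 in control. Endothelial markers were higher in KO for 10 of 10 at 1w (1125 to 1129 CPM against 914 to 930 in control) and for 7 of 10 at 3w (477 to 488 against 412 to 425), where 1 was lower. Smooth muscle and pericyte markers summed to 2314 to 2335 CPM in 1w KO and 1777 to 1849 in 1w control, and to 2033 to 2038 in 3w KO and 1119 to 1163 in 3w control, with 6 and 10 of 10 higher. Of the 8 tested cardiomyocyte markers, 6 were lower and 1 higher in 1w KO and 7 were lower at 3w. Their sums were 41359 to 41699 CPM in 1w KO against 44657 to 45125 in control and 70657 to 71165 in 3w KO against 87090 to 90947 in control. Atrial, epicardial and erythroid marker sums were 646 to 651, 61.0 to 61.6 and 26.1 to 27.6 CPM in 1w KO, against 71.0 to 74.1, 40.0 to 42.1 and 55.6 to 77.7 in 1w control. In 3w KO those sums were 602 to 617, 19.8 to 21.5 and 157 to 162 CPM, against 177 to 184, 22.9 to 24.8 and 122 to 134 in 3w control. The part of these shifts in the differences between KO and control that follow was not tested.

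KO was set against control at each age to ask which chaperone genes depend on Carm1. Calls rest on an adjusted p under 0.05 from the quasi-likelihood test of edgeR, with Benjamini-Hochberg adjustment over the 14665 genes that passed the filter. At 1w, 11 members were higher and 17 lower in KO, 28 of 63, where 43% of all genes tested were called (23% higher, 20% lower). At 3w, 18 were higher and 25 lower, 43 of 63, where 49.2% of all genes were called (24.4% higher, 24.8% lower). The median log2 fold change of the members was -0.05 at 1w and -0.07 at 3w, beside 0.02 and 0.01 over all genes. Library sizes were scaled by TMM factors of 0.917 and 0.916 in 3w KO against 0.782 and 0.759 in 3w control. At 1w the factors were 1.23 in both KO libraries and 1.14 and 1.15 in control. Without these factors the values of KO over control would be higher, most at 3w, so small differences depend on this scaling. In bulk RNA, fewer cells of a type and less RNA per cell cannot be told apart. Of the members, 8 were higher at both ages, 11 lower at both, and 1, Hspa12a, higher at 1w and lower at 3w. The share of all genes called alike at both ages was not counted, so this overlap is given as a count only. The fold changes of each age rest on its own libraries, but the calls of both ages share 1 fit, its spread and its scaling. At 1w the number called was 15 when KO library 2 at 1w was left out.

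**Figure D1:**
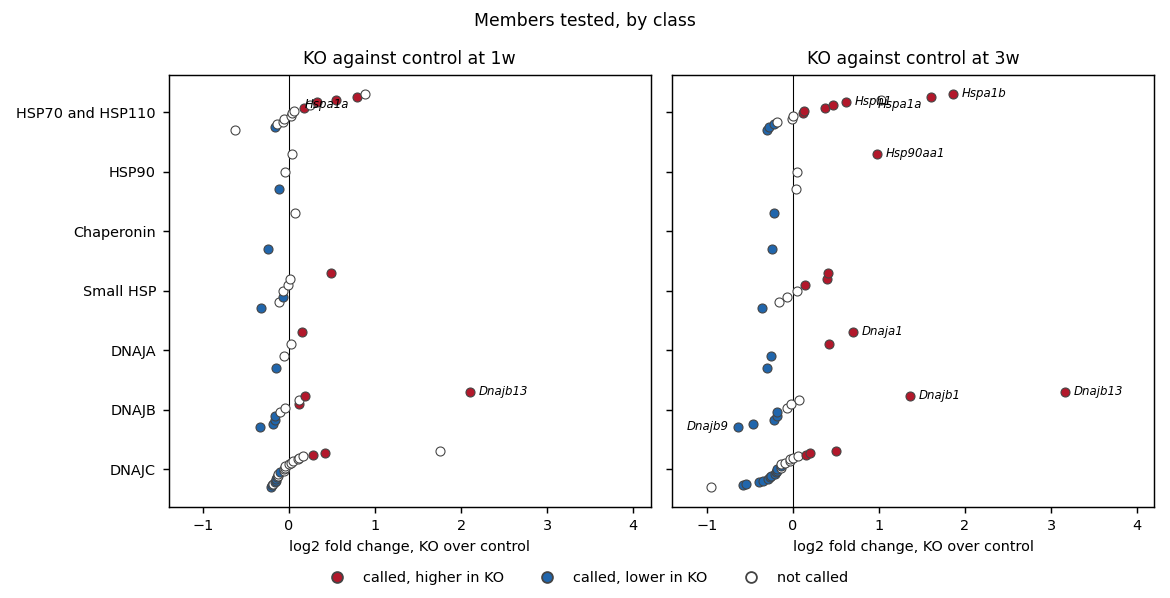
Log2 fold change of KO over control for the 63 members tested, by class, at 1w (left) and 3w (right); filled points were called, open points were not, and names mark called members beyond 0.6 in either direction. At 3w the members highest in KO are Dnajb13, Hspa1b, Hspa1a and Dnajb1, and the lowest called is Dnajb9.

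Among members with a mean of at least 10 CPM, heat-inducible chaperones of the cytosol had the largest differences at 3w. Hspa1a and Hspa1b, the stress-induced HSP70 genes, were 3.04-fold and 3.63-fold as high in KO as in control, Dnajb1, their main inducible DNAJ partner, 2.57-fold, and Hsp90aa1, the inducible cytosolic HSP90, 1.97-fold. A list of 11 cytosolic chaperones of the stress response held Hspa1a, Hspa1b, Hsph1, Hspa4l, Dnajb1, Dnaja1, Dnajb4, Hsp90aa1 and Hspb1, with the constitutive Hspa8 and Hsp90ab1, and did not hold Dnaja4. Of these 11, 8 were higher and 0 lower in 3w KO, with a median log2 fold change of 0.61 beside 0.01 over all genes. At 1w, 3 were higher (Hspa1a, Hsph1 and Dnajb1) and 3 lower (Hspa4l, Dnajb4 and Hsp90ab1), with a median of 0.02 beside 0.02. Of all genes tested, 24.4% were higher and 24.8% lower at 3w, and 23% higher and 20% lower at 1w. The same Hspa4l, Dnajb4 and Hsp90ab1 were the members of this list not called at 3w, at 0.00, -0.03 and 0.04. Immediate early genes, which rise when tissue is dissociated, summed to 689 to 696 CPM in 1w KO against 394 to 432 in 1w control (11 of 16 higher, 2 lower) and to 985 to 1033 CPM in 3w KO against 1045 to 1054 in 3w control (5 higher, 7 lower); their part in these results was not tested.

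Hspa1a (chr17:34969190-34972156, minus strand, mm10) had 99.9 and 105 CPM in 3w KO, against 34.9 and 32.2 CPM in 3w control. In 1w KO its level was 0.90 and 0.64 CPM, from 40 and 24 counts, against 0.55 and 0.38 CPM in 1w control, from 13 and 14 counts. The KO libraries lay above the controls at both ages, by a log2 fold change of 1.61 ± 0.050 at 3w (SE; adjusted p = 1.22e-36). The difference at 1w was 0.79 ± 0.31 (adjusted p = 0.034). The call at 1w was lost without control library 2 at 1w (0.51, adjusted p = 0.373) or KO library 1 at 1w (0.50, adjusted p = 0.362). Hspa1b (chr17:34956436-34959238, minus strand) had 140 and 118 CPM in 3w KO, against 34.1 and 37.3 CPM in 3w control, a log2 fold change of 1.86 ± 0.12 (SE; adjusted p = 0.000144). At 1w its levels were 0.94 and 1.75 CPM in KO and 0.63 and 0.77 CPM in control, and the difference was not called (0.88 ± 0.62, adjusted p = 0.335). Because 60.3% of the 50-base stretches of Hspa1a and 62.3% of those of Hspa1b recur in other genes, mostly in each other, their counts cannot be kept apart with certainty. Summed, the pair had 240 and 223 CPM in 3w KO against 69.0 and 69.6 in 3w control (1.74 ± 0.041, adjusted p = 3.96e-43), and 1.84 and 2.38 CPM in 1w KO against 1.18 and 1.15 in 1w control (0.85 ± 0.18, adjusted p = 8.96e-05). The KO effect on the summed pair was larger at 3w than at 1w by 0.89 ± 0.20 on the log2 scale (adjusted p = 0.00025). Tested alone, neither Hspa1a (1.76-fold) nor Hspa1b (1.97-fold) was called for this difference.

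The promoters of the pair are shown because the genes moved together and share reads: in the RefSeq table for GRCm38.p6, the windows from 250 bases before to 50 after the start, at chr17:34972107-34972406 for Hspa1a and chr17:34959189-34959488 for Hspa1b (both minus strand), differed at 4 of 300 positions. Capitals mark the pair GAANNTTC, a minimal heat shock element of 2 opposed repeats, 104 bases before each start.
Hspa1a: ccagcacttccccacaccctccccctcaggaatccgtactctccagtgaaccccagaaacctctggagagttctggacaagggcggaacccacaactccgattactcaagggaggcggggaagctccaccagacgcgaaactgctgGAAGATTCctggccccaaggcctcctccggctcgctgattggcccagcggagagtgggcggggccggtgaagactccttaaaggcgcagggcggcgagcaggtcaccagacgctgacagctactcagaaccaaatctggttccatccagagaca
Hspa1b: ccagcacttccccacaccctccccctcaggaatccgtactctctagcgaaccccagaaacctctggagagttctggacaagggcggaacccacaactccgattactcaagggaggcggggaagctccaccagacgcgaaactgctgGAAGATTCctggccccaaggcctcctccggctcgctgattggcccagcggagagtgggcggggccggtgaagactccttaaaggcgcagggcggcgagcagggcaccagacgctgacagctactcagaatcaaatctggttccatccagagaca

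Dnajb1 had 179 and 181 CPM in 3w KO, against 70.4 and 69.8 CPM in 3w control. At 1w it had 12.9 and 12.6 CPM in KO and 10.4 and 11.7 CPM in control. The groups did not overlap at either age, and the log2 fold change was 1.36 ± 0.040 at 3w (adjusted p = 2.92e-38). It was 0.19 ± 0.070 at 1w (adjusted p = 0.0238). The call at 1w was lost without control library 1 (0.12) or KO library 1 (0.17) at 1w, or without either KO library of 3w (0.17), with adjusted p of 0.0624 to 0.264, and the value became 0.30 without control library 2 at 1w. The KO effect was larger at 3w than at 1w by 1.17 ± 0.082. Hsph1, an HSP110 that resets HSP70, had 44.8 and 46.0 CPM in 3w KO against 28.7 and 30.9 CPM in 3w control, with 18.5 and 17.7 CPM in 1w KO against 15.2 and 14.0 CPM in 1w control. It was higher in KO at both ages, by 0.61 ± 0.055 at 3w and 0.32 ± 0.070 at 1w (adjusted p = 8.84e-15 and 9.89e-05). Its relative Hspa4l was lower in 1w KO with 34.4 and 34.0 CPM in KO against 37.2 and 39.0 in control (-0.16 ± 0.051, adjusted p = 0.00751). The call was lost without control library 2 (-0.12, adjusted p = 0.153) or KO library 2 (-0.15, adjusted p = 0.066) at 1w.

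The promoter of Hsph1, at chr5:149636287-149636586 (minus strand, GRCm38.p6, RefSeq), is shown because it holds the full heat shock element of 3 alternating repeats, GAANNTTCNNGAA on the opposite strand. Capitals mark this element, 36 bases after the start, and the pair TTCNNGAA 33 bases before it.
Hsph1: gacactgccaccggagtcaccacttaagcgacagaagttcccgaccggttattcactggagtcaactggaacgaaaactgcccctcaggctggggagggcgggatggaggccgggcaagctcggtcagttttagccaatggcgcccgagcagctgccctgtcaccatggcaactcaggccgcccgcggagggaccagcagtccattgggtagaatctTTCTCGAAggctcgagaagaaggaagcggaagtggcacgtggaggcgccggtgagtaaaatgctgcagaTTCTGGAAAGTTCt

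Dnaja1, a cytosolic DNAJ partner of HSP70, had 34.1 and 35.4 CPM in 3w KO against 19.8 and 23.5 CPM in 3w control, a log2 fold change of 0.70 ± 0.065 (adjusted p = 4.95e-13). At 1w it was not called, with 36.4 and 35.3 CPM in KO and 39.6 and 35.8 CPM in control (-0.06 ± 0.058, adjusted p = 0.403). Both KO libraries at 3w thus lay close to the 4 libraries at 1w, and the control libraries at 3w below all of these. Dnaja4, an inducible relative abundant in muscle, had 66.1 and 61.6 CPM in 3w KO against 46.6 and 49.0 CPM in 3w control (0.42 ± 0.048, adjusted p = 2.78e-11). At 1w its levels were 37.4 and 39.1 CPM in KO and 33.7 and 35.3 CPM in control (0.14 ± 0.052, adjusted p = 0.0198). That call was lost without control library 1 (0.11) or KO library 2 (0.12) of 1w, or without either KO library of 3w (0.13), with adjusted p of 0.0512 to 0.173. Of the exon bases of Dnaja4, 44.1% are also exons of Wdr61 on the other strand; Wdr61 was not called at either age (-0.09 ± 0.069 at 1w and -0.10 ± 0.075 at 3w).

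Hsp90aa1 and Hsp90ab1, the inducible and the constitutive HSP90 of the cytosol, were called at different ages. Hsp90aa1 (chr12:110690605-110702728, minus strand) had 130 and 131 CPM in 3w KO, against 67.0 and 65.5 CPM in 3w control. Its 1w levels were 65.4 and 62.3 CPM in KO and 61.6 and 63.1 CPM in control. The KO libraries at 3w stood apart above the other 6 libraries, by 0.98 ± 0.040 over control (adjusted p = 1.53e-30), and 1w was not called (0.03 ± 0.042, adjusted p = 0.546). Hsp90ab1 had 1181 and 1189 CPM in 3w KO against 1160 and 1142 CPM in 3w control, which was not called (0.04 ± 0.027, adjusted p = 0.202). At 1w it had 845 CPM in both KO libraries, against 929 and 898 CPM in control (-0.11 ± 0.027, adjusted p = 0.000529). Hsp90b1, the HSP90 of the endoplasmic reticulum, was called at neither age, at -0.05 ± 0.041 at 1w and 0.03 ± 0.041 at 3w. Reads of Hsp90aa1 may be shared with pseudogenes, since 47.5% of its 50-base stretches recur in other genes, as do 38.6% of those of Hspa8 and 48.8% of those of Hspb1. Hspa8, the constitutive HSP70, had 489 and 479 CPM in 3w KO against 437 and 451 CPM in 3w control (0.12 ± 0.031, adjusted p = 0.000683). The call was lost without KO library 1 at 3w (0.10, adjusted p = 0.0734), and Hspa8 was not called at 1w (0.02 ± 0.032).

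**Figure D2:**
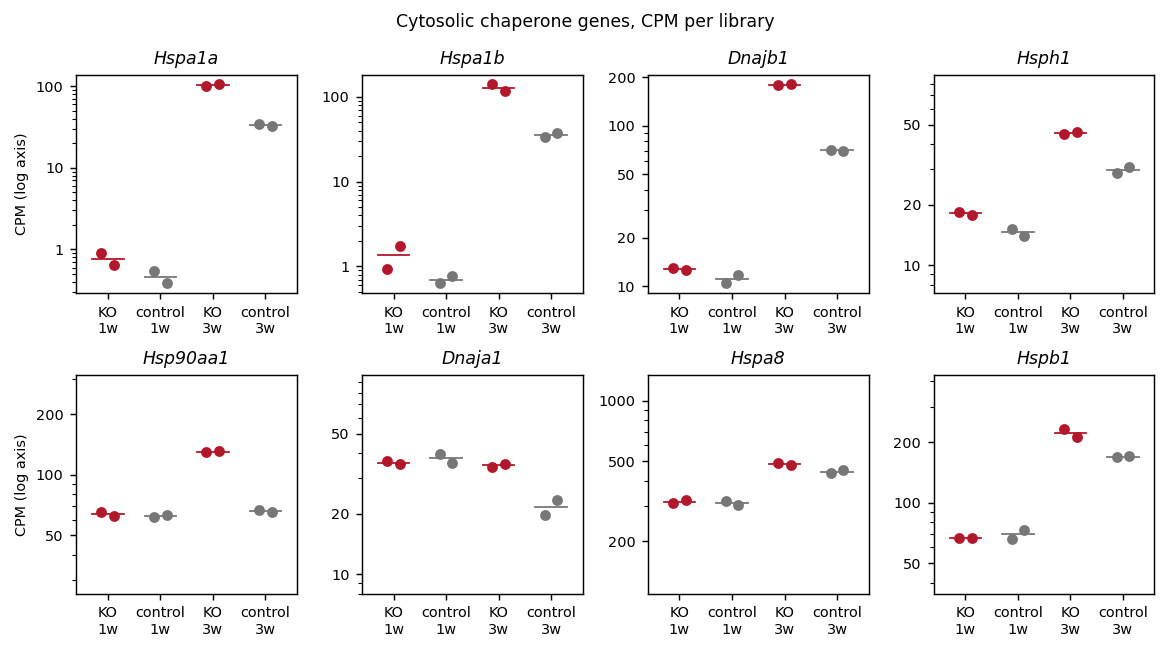
CPM in each library (points, log axis, 2 libraries a group, lines at the mean) for 8 cytosolic chaperone genes in KO and control at 1w and 3w. The 8 are those of the list of 11 that were called higher in 3w KO, so their direction at 3w is fixed by that choice. Hspa4l, Dnajb4 and Hsp90ab1 of that list were not called at 3w and are not shown. The log2 fold changes at 3w run from 0.12 for Hspa8 to 1.86 for Hspa1b.

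With library sizes scaled by TMM, mitochondrial chaperones were lower in 3w KO. Without that scaling their values in KO over control would be higher, so differences near the median given next depend on it. Of the 9 tested members listed as mitochondrial, 8 were lower and 0 higher at 3w, with a median log2 fold change of -0.26 beside 0.01 over all genes; the exception, Dnajc11, was at 0.06 ± 0.044. At 1w, 3 were lower and 1 higher, with a median of -0.06 beside 0.02. Of all genes tested, 24.8% were lower at 3w and 20% at 1w. Hspa9, the HSP70 of the mitochondrial matrix, which pulls proteins in and folds them, had 731 and 737 CPM in 3w KO, against 878 and 933 CPM in 3w control. Levels at 1w were 519 and 514 CPM in KO and 539 and 537 CPM in control. The difference was -0.30 ± 0.029 at 3w (adjusted p = 1.06e-13). It was not called at 1w (-0.06 ± 0.029, adjusted p = 0.102). The matrix chaperonin Hspd1 (HSP60, chr1:55077835-55088243, minus strand) had 215 and 217 CPM in 3w KO against 242 and 270 CPM in 3w control, and 190 and 186 CPM in 1w KO against 219 and 224 CPM in 1w control. It was lower in KO at both ages by nearly the same amount, -0.25 ± 0.036 at 3w and -0.24 ± 0.036 at 1w (adjusted p = 9.92e-08 and 2.18e-07). Summing it with its pseudogene Hspd1-ps3, a choice made after seeing the data because 39.7% of its 50-base stretches recur elsewhere, gave -0.24 ± 0.034 and -0.23 ± 0.034. Its lid Hspe1 (HSP10, chr1:55088132-55091307, plus strand) had 47.1 and 48.6 CPM in 3w KO against 53.3 and 58.3 CPM in 3w control (-0.22 ± 0.050, adjusted p = 0.000204). At 1w Hspe1 had 31.7 and 31.8 CPM in KO and 28.7 and 31.4 CPM in control and was not called (0.07 ± 0.055, adjusted p = 0.306).

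Hspd1 and Hspe1 lie head to head, and 4.24% of the exon bases of Hspd1 and 7.60% of those of Hspe1 are also exons of the other on the opposite strand. The RefSeq table gives 2 starts for Hspd1. One lies 216 bases from the Hspe1 start with the promoter between them; the other lies past the Hspe1 start, so that the genes overlap, and its window holds no heat shock element. The stretch between the first start and Hspe1 is shown because the subunits assemble together, while at 1w Hspd1 was called and Hspe1 was not. The Hspe1 window is chr1:55087898-55088197 (plus strand, GRCm38.p6, RefSeq), and capitals mark overlapping heat shock elements, GAANNTTCNNGAA on both strands, from 89 bases before the Hspe1 start, which begin 144 bases before that first start of Hspd1.
Hspe1: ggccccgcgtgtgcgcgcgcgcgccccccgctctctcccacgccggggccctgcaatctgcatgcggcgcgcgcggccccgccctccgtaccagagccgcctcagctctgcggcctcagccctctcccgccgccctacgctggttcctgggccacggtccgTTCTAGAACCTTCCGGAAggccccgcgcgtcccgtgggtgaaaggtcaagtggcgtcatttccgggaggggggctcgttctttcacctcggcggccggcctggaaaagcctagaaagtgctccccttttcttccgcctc

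Among the DNAJ proteins of mitochondria, Dnajc15, a partner of Hspa9 at the inner membrane, differed most at 3w. Dnajc15 had 65.7 and 66.2 CPM in 3w KO against 95.0 and 103 CPM in 3w control, and 42.6 and 43.0 CPM in 1w KO against 46.7 and 48.1 CPM in 1w control. It was lower in KO at 3w (-0.58 ± 0.042, adjusted p = 1.4e-18). It was lower by less at 1w (-0.15 ± 0.047, adjusted p = 0.00697). The 1w call was lost without control library 2 (-0.12, adjusted p = 0.1) or KO library 1 (-0.14, adjusted p = 0.0723) at 1w. Dnaja3, a matrix DNAJ protein, had 140 and 137 CPM in 3w KO against 167 and 163 CPM in 3w control (-0.26 ± 0.036, adjusted p = 1.76e-08) and was not called at 1w, with 84.5 and 81.3 CPM in KO and 83.9 and 79.3 CPM in control. Dnajc11, found at the contact sites of the 2 mitochondrial membranes, was the member of this list higher at 1w, with 59.0 and 57.0 CPM in KO against 49.1 and 47.2 CPM in control (0.27 ± 0.045, adjusted p = 7.6e-07). At 3w Dnajc11 had 66.1 and 65.3 CPM in KO and 63.9 and 62.0 CPM in control. Dnajc4 had 24.8 and 22.8 CPM in 3w KO against 28.5 in both control libraries at 3w (-0.26 ± 0.063, adjusted p = 0.000416). At 1w Dnajc4 had 17.6 and 17.7 CPM in KO against 19.1 and 21.3 CPM in control (-0.21 ± 0.067, adjusted p = 0.00876). It was no longer called without control library 2 (-0.12), KO library 1 (-0.21) or KO library 2 (-0.21) at 1w, with adjusted p of 0.0528 to 0.33. Dnajc30 had 13 and 13.5 CPM in 3w KO against 16.6 and 15.1 CPM in 3w control (-0.27 ± 0.082, adjusted p = 0.00472), lost without control library 1 at 3w (-0.20, adjusted p = 0.121). Its 1w libraries had 7.89 and 8.95 CPM in KO and 9.07 and 8.5 CPM in control. Of its exon bases, 26.2% are also exons of Bud23 on the other strand. Dnajc19, an import motor subunit, was at -0.19 ± 0.062 at 3w, and its call was lost without control library 2 (-0.15, adjusted p = 0.0632) or KO library 2 (-0.19, adjusted p = 0.0528) at 3w.

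With the same scaling, on which small differences depend, members of the endoplasmic reticulum (ER) were lower or not called at 3w. Of the 11 tested on that list, 5 were lower and 0 higher in 3w KO, with a median of -0.13 beside 0.01. At 1w, 2 were lower and 1 higher, with a median of 0.00 beside 0.02. Of all genes tested, 24.8% were lower at 3w and 20% at 1w. Hspa5 (BiP), the HSP70 of the ER, had 388 and 405 CPM in 3w KO against 451 and 475 CPM in 3w control (-0.22 ± 0.032, adjusted p = 2.76e-08). At 1w Hspa5 had 259 and 252 CPM in KO and 252 and 248 CPM in control, and it was not called (0.03 ± 0.033). Dnajb9 (ERdj4), which delivers clients to BiP, stood lowest of the called members at 3w, with 34.7 and 34.4 CPM in KO against 52.9 and 55.4 CPM in control (-0.64 ± 0.052, adjusted p = 7.48e-17). At 1w it had 14.2 and 14.1 CPM in KO against 18.2 and 17.6 CPM in control (-0.33 ± 0.068, adjusted p = 4.19e-05). Its KO libraries lay below its controls at both ages. Dnajc3 (P58IPK), which also works with BiP, had 31.4 and 33.9 CPM in 3w KO against 37.0 and 38.2 CPM in 3w control (-0.20 ± 0.056, adjusted p = 0.00216), lost without KO library 1 at 3w (-0.16, adjusted p = 0.0612). The 1w libraries had 36.0 and 33.9 CPM in KO against 42.3 and 38.2 CPM in control (-0.19 ± 0.054, adjusted p = 0.00244), lost without control library 1 (-0.13, adjusted p = 0.0948) or KO library 2 (-0.15, adjusted p = 0.0834) at 1w. Dnajb12, of the ER membrane, had 38.5 and 39.9 CPM in 3w KO against 45.2 and 45.9 CPM in 3w control (-0.22 ± 0.051, adjusted p = 0.000343) and 27.7 and 28.1 CPM in 1w KO against 27.7 and 29.7 CPM in 1w control, not called. Dnajb11 (ERdj3) was called higher in 1w KO (0.12 ± 0.049, adjusted p = 0.0441), but leaving out any of the 8 libraries ended that call, with values of 0.09 to 0.14.

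The promoter of Hspa5, at chr2:34771840-34772139 (plus strand, GRCm38.p6, RefSeq), is shown as the example of the ER class: capitals mark the ER stress element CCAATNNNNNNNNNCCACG, which begins 65 bases before the start.
Hspa5: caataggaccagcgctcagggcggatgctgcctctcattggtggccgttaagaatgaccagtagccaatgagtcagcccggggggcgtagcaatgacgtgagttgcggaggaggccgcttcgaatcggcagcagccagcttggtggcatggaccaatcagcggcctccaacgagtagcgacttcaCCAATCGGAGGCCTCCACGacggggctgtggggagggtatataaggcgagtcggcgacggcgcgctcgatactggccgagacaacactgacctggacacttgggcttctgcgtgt

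Hspb7 had the highest level of all members in every group, and the small heat shock proteins of muscle split in 3w KO, with Hspb7 lower and Hspb6, Hspb8 and Hspb1 higher. Hspb7 (chr4:141420779-141425311, plus strand), a cardiovascular small heat shock protein, took 24.1 to 24.5% of the summed CPM of all 72 members in 3w KO against 29.3 to 30.6% in 3w control, and 25.8 to 26.0% in 1w KO against 26.5 to 26.8% in 1w control. Its levels were 2337 and 2298 CPM in 3w KO against 3034 and 2929 CPM in 3w control, and 1494 and 1502 CPM in 1w KO against 1577 and 1569 CPM in 1w control. Both KO libraries lay below the controls at each age, by -0.36 ± 0.025 at 3w (adjusted p = 2.24e-19). For 1w the value was -0.07 ± 0.026 (adjusted p = 0.0201). This call was lost without control library 1 (-0.07), KO library 1 (-0.07) or KO library 2 (-0.07), with adjusted p of 0.0536 to 0.172. Hspb6, which binds actin and protects the heart from stress, was higher in KO at both ages and more so at 1w. It had 864 and 875 CPM in 3w KO against 785 and 798 CPM in 3w control (0.14 ± 0.030, adjusted p = 0.000107), and 329 and 333 CPM in 1w KO against 244 and 230 CPM in 1w control (0.48 ± 0.031, adjusted p = 6.31e-21). The KO effect on Hspb6 at 3w less that at 1w was -0.35 ± 0.043 (adjusted p = 7.42e-10).

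Hspb8, which works with the co-chaperone Bag3 in clearing damaged filament proteins, had 582 CPM in both KO libraries at 3w against 438 and 443 CPM in 3w control (0.40 ± 0.031, adjusted p = 8.89e-18). At 1w it had 135 CPM in both KO libraries and 133 and 135 CPM in control, and it was not called (0.01 ± 0.033). Hspb1 (HSP25), an inducible small heat shock protein, showed the same pattern, with 231 and 212 CPM in 3w KO against 168 and 170 CPM in 3w control (0.39 ± 0.039, adjusted p = 4.25e-11), and 66.5 CPM in both KO libraries at 1w and 65.7 and 73.1 CPM in 1w control (-0.07 ± 0.044, not called). Hspb2 was called at neither age (-0.01 ± 0.088 at 1w and -0.07 ± 0.077 at 3w). Its exons share 30.2% of their bases with exons of Cryab on the other strand. Hspb3, named after its values were seen since its mean level is under 10 CPM, was at -0.33 ± 0.12 at 1w. The call was lost without control library 1 (-0.32), control library 2 (-0.35) or KO library 2 (-0.27) at 1w, and Hspb3 was not called at 3w. Cryab, a small heat shock protein outside the symbol rule and the partner of several of these, had 876 and 859 CPM in 3w KO and 871 and 848 CPM in 3w control, and 302 and 305 CPM in 1w KO against 350 and 345 CPM in 1w control (0.01 ± 0.029, not called, and -0.19 ± 0.030, adjusted p = 1.41e-07).

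**Figure D3:**
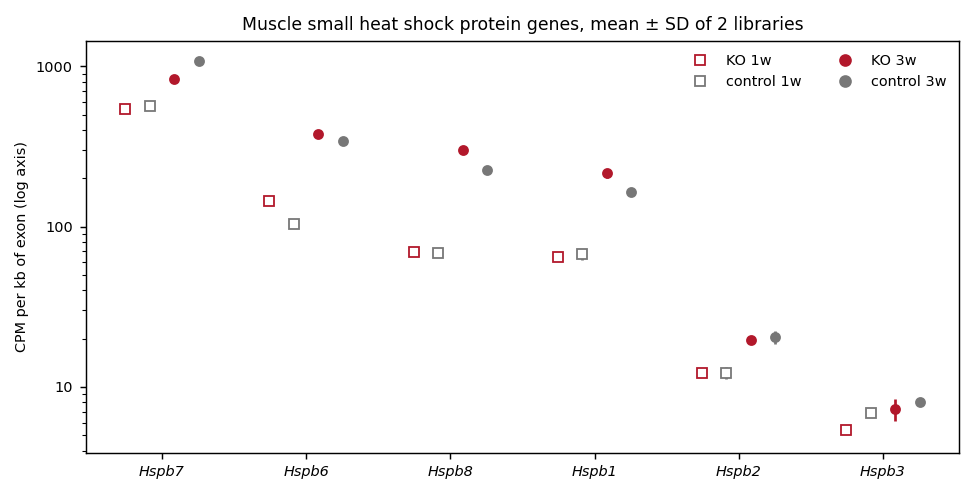
Level of 6 muscle small heat shock protein genes in CPM per kb of exon (log axis; mean ± SD of 2 libraries, red for KO and grey for control, squares for 1w and circles for 3w). Hspb7 is highest in every group, at 837 CPM per kb in 3w KO and 1077 in 3w control, and Hspb3 lowest, at 7.25 and 8.08.

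Levels per kb of exon allow a rough comparison between genes. The length takes in every annotated exon of a gene, used here or not, so the order is approximate. Over all 8 libraries it began with Hspb7 (756 CPM per kb), Hsp90ab1 (341), Hspb6 (242), Hspb8 (166), Hspa9 (156), Hspb1 (128), Hspa8 (90.2), Hspd1 (83.4), Hspa5 (80.7) and Dnaja2 (60.9). In the DNAJB class Dnajb1 had the highest mean over the 8 libraries (21.4 CPM per kb), which rests on 3w, with 56.2 in KO and 21.9 in control; at 1w it stood at 3.98 in KO and 3.45 in control, below Dnajb11 at 13.5 in KO and 12.5 in control. In the DNAJC class Dnajc8 had the highest mean (20.6 CPM per kb), but at 3w it stood at 18.95 in KO and 20.9 in control, below Dnajc4 at 19.2 in KO and 23.0 in control. Hspb8 and Hspa9 changed places with age in both genotypes. At 3w Hspb8 stood above Hspa9, at 299 against 170 CPM per kb in KO and 226 against 210 in control. At 1w it stood below, at 69.3 against 120 in KO and 68.7 against 125 in control. The 72 members together summed to 9524 to 9558 CPM in 3w KO against 9919 to 9988 in 3w control. As a share of all counts without scaling, they took 0.872 to 0.876% in 3w KO against 0.758 to 0.775% in 3w control, so the direction of the sum depends on the scaling and none is given.

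With the same scaling, on which small differences depend, most called members among the other cytosolic and nuclear DNAJ genes were lower in KO. Dnaja2, the constitutive DNAJA partner of Hspa8, had 193 and 192 CPM in 3w KO against 234 and 240 CPM in 3w control, and 140 and 139 CPM in 1w KO against 154 and 156 CPM in 1w control. It was lower at both ages (-0.30 ± 0.033 and -0.15 ± 0.034, adjusted p = 6.84e-12 and 0.000177), while its relatives Dnaja1 and Dnaja4 were higher at 3w. Dnajb5 had 90.8 and 96.6 CPM in 3w KO against 130 and 129 CPM in 3w control, and 64.5 and 63.4 CPM in 1w KO against 74.4 and 72.0 CPM in 1w control (-0.46 ± 0.039 and -0.19 ± 0.041, adjusted p = 4.38e-16 and 9.03e-05). Dnajb4 had 48.8 and 48.2 CPM in 1w KO against 56.0 and 53.2 CPM in 1w control (-0.17 ± 0.045, adjusted p = 0.00164), and 106 and 109 CPM in 3w KO and 107 and 114 CPM in 3w control, not called. Dnajb2, a neuron- and muscle-rich DNAJ protein, was lower over both ages together (-0.17 ± 0.046, adjusted p = 0.0196), with 60.8 and 59.4 CPM in 3w KO against 66.0 and 71.1 CPM in 3w control, and 32.0 and 32.1 CPM in 1w KO against 34.4 and 37.1 CPM in 1w control. That call was lost without control library 2 at 1w (-0.16, adjusted p = 0.0585).

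In the DNAJC class, 12 of the 23 tested were lower and 3 higher in 3w KO, and 7 lower and 2 higher at 1w. Of all genes tested, 24.8% were lower and 24.4% higher at 3w, and 20% lower and 23% higher at 1w. Dnajc7, which binds both HSP70 and HSP90, had 12.3 and 13.4 CPM in 3w KO against 17 and 15.5 CPM in 3w control (-0.35 ± 0.077, adjusted p = 0.000113). At 1w levels were 21.3 and 21.0 CPM in KO against 24.2 and 23.4 CPM in control (-0.17 ± 0.065, adjusted p = 0.0287). The call was lost when any 1 of the 4 libraries at 1w was left out (-0.15 to -0.19). The nuclear members were lower at 3w for 4 of 6 and higher for 0, with a median of -0.17, which depends on the TMM scaling. Dnajc9, a histone chaperone, had 9.18 and 8.47 CPM in 3w KO against 11.2 and 10.2 CPM in 3w control (-0.28 ± 0.093, adjusted p = 0.00849), lost without control library 1 (-0.22, adjusted p = 0.136) or KO library 2 (-0.25, adjusted p = 0.0893) at 3w. At 1w Dnajc9 was not called, with 15.3 and 15.9 CPM in KO and 14.8 and 13.3 CPM in control. Dnajc8, a splicing factor partner, had 47.6 and 49.3 CPM in 3w KO against 52.2 and 54.7 CPM in 3w control (-0.14 ± 0.047, adjusted p = 0.0105), lost without KO library 1 at 3w (-0.13, adjusted p = 0.0777). It had 52.9 and 51.8 CPM in 1w KO against 55.9 and 56.8 CPM in 1w control (-0.11 ± 0.045, adjusted p = 0.0474), lost without any 1 of the 4 libraries at 1w (-0.09 to -0.12). Of the 4 members of vesicle traffic, Dnajc27 was higher at both ages, with 11.4 and 11.6 CPM in 3w KO against 8.46 and 7.74 CPM in 3w control, and 11.1 and 11.5 CPM in 1w KO against 9.23 and 7.87 CPM in 1w control (0.50 ± 0.094 and 0.42 ± 0.091, adjusted p = 8.18e-06 and 0.000127). It is named after its values were seen, as its mean level is just under the 10 CPM set for naming. Dnajc5, a synaptic vesicle co-chaperone, was lower at 1w (-0.14 ± 0.043), lost without control library 1 or KO library 2 at 1w (both -0.09), and Dnajc13, of endosomes, was higher at 3w (0.20 ± 0.052, adjusted p = 0.00119).

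The other called members differed less or had low levels. Hspa4, an HSP110, was higher in 3w KO by 0.11 ± 0.033 (adjusted p = 0.00409), lost without KO library 1 at 3w (0.08, adjusted p = 0.126). Hspa2 was higher in 3w KO by 0.37 ± 0.13 (adjusted p = 0.0179), lost without control library 2 (0.28) or KO library 2 (0.24) at 3w. Dnajc18 was higher by 0.16 ± 0.060 (adjusted p = 0.026), lost without control library 1 (0.12), control library 2 (0.16) or KO library 1 (0.07) at 3w. Of those lower in 3w KO, Dnajc17 was at -0.54 ± 0.17, Dnajc21 at -0.21 ± 0.064 and Dnajc16 at -0.18 ± 0.054. The calls of Dnajc17 (-0.48) and Dnajc21 (-0.11) were lost without KO library 1 at 3w, and that of Dnajc16 (-0.15) without KO library 2 at 3w. Dnajc24, which takes part in making diphthamide, was at -0.39 ± 0.16 in 3w KO and Dnajc14 at -0.15 ± 0.057 in 1w KO, and either call was lost without any 1 of the 4 libraries of its age. The members called at neither age were Hsp90b1, Hspb2, Hspb11, Hspa13, Hspa14, Hspa1l, Dnajb14, Dnajc1, Dnajc2, Dnajc6, Dnajc10 and Dnajc12. Hspa1l and Dnajc6 had mean levels of 0.23 and 0.21 CPM.

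Dnajb13, a DNAJ protein of cilia and sperm flagella, had the largest fold change of the called members but a low level, and is named after its values were seen. It had 4.70 and 5.58 CPM in 3w KO, from 133 and 160 counts, against 0.57 CPM in both control libraries at 3w, from 24 and 16 counts. At 1w it had 3.89 and 4.13 CPM in KO against 0.88 and 0.96 CPM in control. It was higher in KO by 3.17 ± 0.21 at 3w and 2.11 ± 0.19 at 1w (adjusted p = 1.2e-20 and 3.56e-14). Its exons overlap those of Ucp2 on the other strand over 11.2% of their bases, and the strand setting of the counting is not given. Ucp2 had 158 and 154 CPM in 3w KO against 118 and 113 CPM in 3w control, and 371 and 378 CPM in 1w KO against 281 and 288 CPM in 1w control (0.43 ± 0.035 and 0.40 ± 0.032). Its part in the level of Dnajb13 was not tested.

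The divergent HSP70 genes Hspa12a and Hspa12b were both higher in 1w KO and went opposite ways in 3w KO. Hspa12a (chr19:58795750-58943654, minus strand) had 22.6 and 23.3 CPM in 3w KO against 27.8 CPM in both control libraries at 3w, and 23.3 and 22.2 CPM in 1w KO against 16.1 and 15.3 CPM in 1w control. It was lower in 3w KO (-0.28 ± 0.062, adjusted p = 0.00013) and higher at 1w (0.54 ± 0.066, adjusted p = 4e-10), and the effect at 3w less that at 1w was -0.82 ± 0.090 (adjusted p = 2.5e-11). The 4 KO libraries lay within 22.2 to 23.3 CPM, while control rose with age. Hspa12b, an endothelial HSP70, was higher in KO at both ages, with 16.1 and 15.7 CPM in 3w KO against 11.9 and 11 CPM in 3w control, and 33.7 and 34.4 CPM in 1w KO against 28.8 and 31.4 CPM in 1w control. The differences were 0.47 ± 0.077 (adjusted p = 7.19e-07) and 0.17 ± 0.057 (adjusted p = 0.0113), and the 1w call was lost without control library 1 (0.12, adjusted p = 0.172) or KO library 2 (0.16, adjusted p = 0.0842) at 1w. Endothelial markers were higher in KO at both ages, as given above, and their part in the level of Hspa12b was not tested.

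Over both ages together, tested with age as a term so that a difference between ages counts as spread, 11 members were higher and 13 lower in KO, 24 of 63, where 30.7% of all genes were called (16.3% higher, 14.5% lower). The higher members with the largest differences were Dnajb13 (2.62 ± 0.21), Hspa1b (1.67 ± 0.21), Hspa1a (1.5 ± 0.14) and Dnajb1 (0.84 ± 0.23), and the lower ones were Dnajb9 (-0.50 ± 0.067), Dnajc15 (-0.37 ± 0.084) and Dnajb5 (-0.33 ± 0.059). The call of Dnajb1 was lost without control library 1 at 1w (0.90) or any 1 of the 4 libraries at 3w (0.68 to 0.72), with adjusted p of 0.0503 to 0.105. This comparison spans the split in Y-linked counts in both directions. An average of the 2 ages in the fit of 4 groups, in which that split is a term, called 43 members, 18 higher and 25 lower.

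Age was read in each genotype from its own libraries, 3w against 1w, to ask how chaperones differ between these ages. Injection was on postnatal day 3 or 4 for 3w and day 1 or 2 for 1w, so injection day and age cannot be told apart. In KO, 41 members were higher and 10 lower at 3w, 51 of 63, where 67.9% of all genes were called (33.2% higher, 34.6% lower). In control, 40 were higher and 12 lower, 52 of 63, where 70.8% of all genes were called (34.9% higher, 36% lower). The number lower in control was 7 without control library 1 at 3w. Over both genotypes, 40 were higher and 11 lower at 3w, where 66.6% of all genes were called (32.3% higher, 34.3% lower). The members' median log2 fold change was 0.46 in KO and 0.48 in control, beside -0.02 and -0.03 over all genes. The TMM factors in KO were 0.917 and 0.916 at 3w against 1.23 in both libraries at 1w. In control they were 0.782 and 0.759 against 1.14 and 1.15. Without them the values of 3w over 1w would be lower, so the size of these medians depends on this scaling. Without scaling, the members took 0.872 to 0.876% of all counts at 3w against 0.710 to 0.712% at 1w in KO. In control these shares were 0.758 to 0.775% against 0.676 to 0.680%. Cardiomyocyte markers were higher at 3w for 8 of 8 tested in KO and in control, and fibroblast markers lower for 9 of 9, and their part was not tested. Immediate early genes, which rise when tissue is dissociated, also summed higher at 3w. Their sums were 985 to 1033 CPM at 3w against 689 to 696 at 1w in KO, and 1045 to 1054 against 394 to 432 in control. The part of dissociation in the rise of heat-inducible members with age was not tested.

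With the same scaling, on which small differences with age depend, all 9 tested mitochondrial members were higher at 3w in KO (median 0.51) and in control (median 0.75). Dnajc15 was higher by 0.62 ± 0.045 in KO and 1.06 ± 0.044 in control, Hspe1 by 0.59 ± 0.052 and 0.88 ± 0.053, and Hspa9 by 0.51 ± 0.029 and 0.75 ± 0.030. These genes thus stood closer to their levels of 1w in KO, and the test of that difference passed for Dnajc15 (-0.43 ± 0.063), Hspe1 (-0.29 ± 0.075), Hspa9 (-0.24 ± 0.042), Dnaja3 (-0.28 ± 0.053) and Dnajc11 (-0.21 ± 0.062), with adjusted p of 7.57e-08 to 0.00504. It is the same test as that of the KO effects at the 2 ages. Among members with a mean of at least 10 CPM, the largest differences with age were in Hspa1a (7.04 ± 0.092 in KO, 6.22 ± 0.13 in control), Hspa1b (6.62 ± 0.21 and 5.64 ± 0.30) and Dnajb1 (3.82 ± 0.049 and 2.65 ± 0.056). Next in KO came the small heat shock proteins Hspb8 (2.11 ± 0.032 in KO, 1.72 ± 0.033 in control), Hspb1 (1.74 ± 0.041 and 1.28 ± 0.042) and Hspb6 (1.39 ± 0.030 and 1.74 ± 0.031). In control the order was Hspb6, Hspb8, Dnajb9 and Hspb1, with Dnajb9 at 1.29 ± 0.061 in KO and 1.60 ± 0.057 in control. Hsp90aa1 was higher at 3w in KO (1.03 ± 0.039, adjusted p = 7.3e-33) and not called in control (0.09 ± 0.042, adjusted p = 0.0585), a difference of 0.94 ± 0.058 (adjusted p = 1.81e-21). Among the members lower at 3w, Hspa12b fell by 1.10 ± 0.064 in KO and 1.39 ± 0.069 in control on the log2 scale. Hspa2, a testis-rich HSP70, was at -0.67 ± 0.11 in KO and -0.79 ± 0.12 in control, Dnajc7 at -0.72 ± 0.073 and -0.54 ± 0.069, and Dnajc9 at -0.82 ± 0.086 and -0.37 ± 0.085. Dnajc17, a nuclear splicing member with a mean of 3.41 CPM, was at -0.82 ± 0.16 in KO and -0.40 ± 0.15 in control, the call in control being lost without control library 1 of 1w (-0.30) or of 3w (-0.33). Dnaja1 was not called in KO (-0.05 ± 0.059) and was lower in control (-0.81 ± 0.064, adjusted p = 6.59e-16), a difference of 0.76 ± 0.087 (adjusted p = 4.83e-10).

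**Figure D4:**
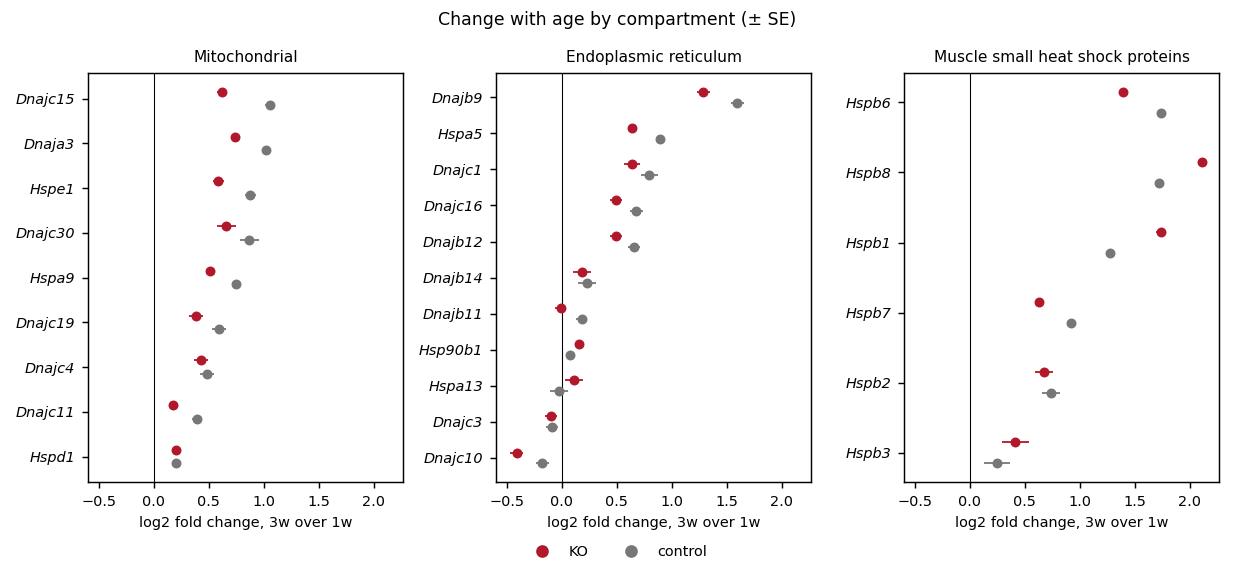
Log2 fold change of 3w over 1w (± SE, where wider than the point) in KO (red) and control (grey) for tested members of the mitochondria, the ER and the muscle small heat shock proteins. With library sizes scaled by TMM, all points of the mitochondrial members lie right of 0, with medians of 0.51 in KO and 0.75 in control. Hspb8 and Hspb1 lie further right in KO.

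Regulators and partners that the symbol rule does not take in were read as fixed lists, the heat shock factors first. For these lists, of all genes tested 24.4% were higher and 24.8% lower in KO at 3w. At 1w 23% were higher and 20% lower. Hsf1, the main heat shock factor, had 33.0 and 32.1 CPM in 3w KO and 35.1 and 30.4 CPM in 3w control (-0.02 ± 0.059, not called), and 26.0 and 25.4 CPM in 1w KO against 21.6 and 21.4 CPM in 1w control (0.26 ± 0.063, adjusted p = 0.00056). On that list 1 of 5 tested was higher and 3 lower at 3w, and 1 higher and 1 lower at 1w. The named changes at 3w were Hsf4 at 0.65 ± 0.21, Hsbp1l1 at -1.44 ± 0.22 and Hsf2 at -0.43 ± 0.079. Among 12 nucleotide exchange factors and regulators of HSP70, 2 were higher and 5 lower at 3w, and 1 higher and 2 lower at 1w. Hyou1, the ER exchange factor, was higher in KO at both ages (0.41 ± 0.056 at 3w and 0.25 ± 0.060 at 1w), and the mitochondrial exchange factors Grpel2 (-0.51 ± 0.080) and Grpel1 (-0.31 ± 0.041) were lower at 3w. Bag3, the muscle exchange factor and partner of Hspb8, was called in KO at neither age (-0.07 ± 0.033 at 3w and -0.06 ± 0.035 at 1w) and was higher at 3w than at 1w, by 1.29 ± 0.034 in KO and 1.31 ± 0.034 in control.

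With library sizes scaled by TMM, 11 of 20 tested HSP90 co-chaperones were lower in 3w KO and 2 higher, with a median of -0.18. At 1w 6 were lower and 3 higher with a median of -0.06. Without that scaling the values of KO over control would be higher, so the medians of the lists given here depend on it. Fkbp5, a steroid receptor co-chaperone, had 37.5 and 38.9 CPM in 3w KO against 62.9 and 63.5 CPM in 3w control, and 8.09 and 9.42 CPM in 1w KO against 4.11 and 4.86 CPM in 1w control (-0.73 ± 0.053 and 0.93 ± 0.10). Cdc37l1 (-0.65 ± 0.042) and Itgb1bp2, the muscle co-chaperone melusin (-0.59 ± 0.033), were lower at 3w. The cytosolic chaperonin TRiC and prefoldin had 8 of 14 lower and 1 higher at 3w (median -0.13), with Vbp1 at -0.51 ± 0.066, Pfdn6 at -0.38 ± 0.071 and Pfdn5 at -0.26 ± 0.047, and 4 lower and 1 higher at 1w. Other mitochondrial chaperones and proteases had 6 of 9 lower and 1 higher at 3w (median -0.24), among them the protease subunits Clpx (-0.68 ± 0.044) and Clpp (-0.45 ± 0.051). Other folding genes of the ER had 4 of 12 higher and 4 lower at 3w and 7 higher and 3 lower at 1w. Herpud1, of ER-associated degradation, was at -1.46 ± 0.032 at 3w and -0.43 ± 0.037 at 1w.

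Promoter windows of 250 bases before to 50 after the start were in the RefSeq table (GRCm38.p6) for 58 of the 72 members and for 27025 genes in all. Hsp90aa1, Hsp90ab1, Hspa8 and Hspa9 were among the members without a window and could not be judged. On both strands, GAANNTTCNNGAA was found in 4 of the 58 (6.90%), in Dnajb6, Hspd1, Hspe1 and Hsph1, and in 0.662% of all genes. Hspd1 and Hspe1 hold the same stretch between them, so the 4 are not separate promoters. GAANNTTC or TTCNNGAA, which the longer element contains, was found in 16 (27.6%) and in 17% of all genes. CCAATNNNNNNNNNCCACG was found in 3 (5.17%), in Hspa5, Hsp90b1 and Dnajc3, and in 0.137% of all genes. TGATGCAA, an element bound by factors of the integrated stress response, was found in 0 of the 58 and in 1.03% of all genes. The genes with the longer heat shock element did not move together at 3w: Hsph1 was higher in KO (0.61), and Hspd1 (-0.25), Hspe1 (-0.22) and Dnajb6 (-0.19) were lower, the last lost without KO library 1 at 3w (-0.16, adjusted p = 0.0852). Where the table gives a gene several starts, it was counted if any of its windows held the letters. A match is a description of the letters, not of binding.

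**Figure D5:**
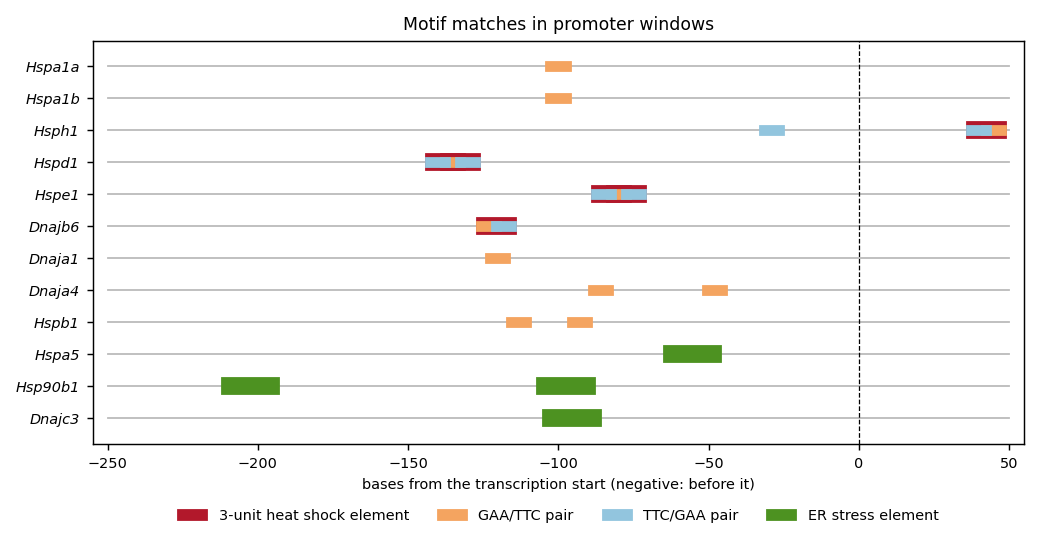
Matches of the heat shock element (red), its pairs (orange and blue) and the ER stress element (green) in the promoter windows of 12 members (1 window a gene, among those with a match), by distance in bases from the transcription start (dashed line). Hspa1a and Hspa1b share a GAA/TTC pair 104 bases before the start, and in Hsph1 the longer element begins 36 bases after it.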

How the data were processed

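The deposited data were 1 table of whole-number read counts per gene for 8 libraries. Per the submitters' processing notes, the authors used FastQC, MultiQC, HISAT2, featureCounts and DESeq2 with mm10; no version, annotation or strand setting is given there. By the labels' protocols, RNA was turned into libraries with SMART and Nextera XT kits. What follows was computed from these counts. GENCODE M21 named 54723 of 54752 IDs. Genes were kept by edgeR's filterByExpr (minimum count 10, minimum total 15), which left 14665. Library sizes were scaled by TMM (factors 0.759 to 1.23), also for CPM. The robust quasi-likelihood test of edgeR was run on 1 fit of 4 groups (4 residual degrees of freedom, common coefficient of variation 3.03%) or, over both ages, in a fit with age and KO as additive terms, with Benjamini-Hochberg adjustment over all genes. Each SE is the size of the log2 fold change divided by the square root of its F value.

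The procedure was tested on simulated counts. The members and lists were chosen with earlier results of these data known. Members given in every library were called in KO with a mean of at least 10 CPM: the 4 largest per class and comparison and the highest per kb, with up to 5 per direction for age. For partner lists, up to 3 called genes are named per list. Shared 50-base stretches and exon overlaps come from GENCODE M21 transcripts. Alternatives were other size factors, DESeq2, no filter, no robust estimation, a replicate term and leaving out libraries. Software was R 4.3.3, edgeR 4.0.16, limma 3.58.1 and DESeq2 1.42.0.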

Additional observations from a re-analysis of the deposited data

Results flagged for a closer look

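For 28 of the 63 members the KO effect at 3w differed from that at 1w, tested as the difference of the 2 log2 fold changes with edgeR's quasi-likelihood test and Benjamini-Hochberg adjustment; 35.6% of all genes were called in this comparison (17.6% higher, 17.9% lower). Without the TMM factors all of these differences would be more positive, so small ones depend on that scaling. In 11 the KO effect was more positive at 3w than at 1w. Among cytosolic heat-inducible genes the differences on the log2 scale were Dnajb1 1.17 (KO effect 1.36 at 3w and 0.19 at 1w), Hsp90aa1 0.94 (KO effect 0.98 at 3w and 0.03 at 1w) and Dnaja1 0.76 (KO effect 0.70 at 3w and -0.06 at 1w). Smaller ones in the same direction were Hspb1 0.46 (KO effect 0.39 at 3w and -0.07 at 1w), Hspb8 0.39 (KO effect 0.40 at 3w and 0.01 at 1w), Hsph1 0.29 (KO effect 0.61 at 3w and 0.32 at 1w), Dnaja4 0.28 (KO effect 0.42 at 3w and 0.14 at 1w) and Hsp90ab1 0.15 (KO effect 0.04 at 3w and -0.11 at 1w). The remaining positive differences were Dnajb13 1.06 (KO effect 3.17 at 3w and 2.11 at 1w), Hspa12b 0.29 (KO effect 0.47 at 3w and 0.17 at 1w) and Dnajc13 0.26 (KO effect 0.20 at 3w and -0.06 at 1w). In 17 the KO effect was more negative at 3w. For mitochondrial members the differences were Dnajc15 -0.43 (KO effect -0.58 at 3w and -0.15 at 1w), Hspe1 -0.29 (KO effect -0.22 at 3w and 0.07 at 1w), Dnaja3 -0.28 (KO effect -0.26 at 3w and 0.03 at 1w), Hspa9 -0.24 (KO effect -0.30 at 3w and -0.06 at 1w) and Dnajc11 -0.21 (KO effect 0.06 at 3w and 0.27 at 1w). In the ER they were Dnajb9 -0.31 (KO effect -0.64 at 3w and -0.33 at 1w), Hspa5 -0.26 (KO effect -0.22 at 3w and 0.03 at 1w), Dnajc10 -0.23 (KO effect -0.13 at 3w and 0.10 at 1w) and Dnajb11 -0.19 (KO effect -0.07 at 3w and 0.12 at 1w). For muscle small heat shock proteins and Hspa12a they were Hspb6 -0.35 (KO effect 0.14 at 3w and 0.48 at 1w), Hspb7 -0.29 (KO effect -0.36 at 3w and -0.07 at 1w) and Hspa12a -0.82 (KO effect -0.28 at 3w and 0.54 at 1w). Other DNAJ genes gave Dnajc9 -0.45 (KO effect -0.28 at 3w and 0.16 at 1w), Dnajb5 -0.27 (KO effect -0.46 at 3w and -0.19 at 1w), Dnajc21 -0.25 (KO effect -0.21 at 3w and 0.05 at 1w) and Dnaja2 -0.15 (KO effect -0.30 at 3w and -0.15 at 1w). Dnajc6, a clathrin uncoating co-chaperone, gave -2.71 with KO effects of -0.96 at 3w and 1.75 at 1w, neither called, from 5 counts in each KO library at 3w against 11 and 13 in 3w control, and 9 and 10 in 1w KO against 1 and 3 in 1w control. 1w KO and 3w control share Y-linked counts that the other groups lack, so this difference and that split cannot be told apart. Without 1 library in turn, 24 to 30 members were called, and 9 of the 28 lost the call in at least 1 such setting. Dnajc21 (-0.26 to -0.14) and Dnajc6 (-3.33 to -2.33) each lost it in 6 settings and Dnajb11 (-0.19 to -0.17) in 5, with adjusted p of 0.0502 to 0.33. Dnajc10 (-0.22 to -0.20) and Hspa12b (0.22 to 0.28) lost it in 4 settings, with adjusted p of 0.0532 to 0.12. Hsph1 lost it without control library 1 (0.24) or KO library 2 (0.25) at 1w, with adjusted p of 0.0579 and 0.0549. Dnajb13 lost it without control library 2 at 1w (0.98, adjusted p = 0.0721), Dnajc13 without control library 1 at 1w (0.18, adjusted p = 0.0582) and Dnaja2 without KO library 2 at 3w (-0.15, adjusted p = 0.0504). DESeq2 called 18 members in this comparison.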

How the results depend on the processing

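Over the alternatives run, no member's log2 fold change called in any comparison changed sign. None of these alternatives left the library sizes unscaled. With DESeq2 the members called were 15 in KO against control at 1w (6 higher, 9 lower) and 18 for the difference of KO effects (7 higher, 11 lower). The average of both ages in the fit of 4 groups called 43 in KO over both ages (18 higher, 25 lower), where the spread between ages no longer counts as error. With 1 library left out, where a lone library is assumed to vary like the other groups, 15 to 28 were called at 1w (7 to 18 of them lower), and 7 to 12 were lower with age in control. The cause was not tested. Of single calls, DESeq2 ended 46 of 276, no filter 17 of 277, the replicate term 10 of 277, and each library left out 21 to 27 of 277. Every alternative kept 12 of 28 calls at 1w, 28 of 43 at 3w, 15 of 24 over both ages and 17 of 28 differences of KO effects. Same-numbered libraries did not deviate together (correlations of -0.022 to 0.0083). In the labels, same-numbered KO and control libraries of an age share an injection day, and 2 libraries a group cannot exclude a pairing. With the replicate block 28 members were called at 1w, 44 at 3w and 18 over both ages, among those lost Hspa9 and Hspb7. Hspa1a at 1w rests on 13 to 40 counts per library, and members listed at 0 could not be judged.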
